A study of Mus musculus with 10 samples.

Results

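The Msx genes are a family of 3 mouse homeobox genes, Msx1, Msx2 and Msx3, which encode DNA-binding proteins that act mainly as transcriptional repressors. They were read from the deposited expression table by gene symbol, 3 of its 48516 genes. The family was selected on measured values, the FPKM of Msx3, which had been seen to be lower in metastasis than in primary libraries of this table, so the metastasis and primary values of the members are given here as a description, without a test.

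Msx genes are classical targets of bone morphogenetic protein (BMP) signalling. BMP ligands bind type I and type II receptor kinases, which phosphorylate Smad proteins that enter the nucleus and switch on genes such as the Id and Msx genes. In the embryo Msx1 and Msx2 are active in limb buds, teeth, skull and neural crest, where they hold cells in an undifferentiated state, and Msx2 has been tied to epithelial-mesenchymal transition in pancreatic cancer cells. Msx3 is known mainly from the dorsal neural tube of rodents.

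The libraries came from a pancreatic cancer model in FVB mice, in which the line Ink4a.1 was injected into the pancreas and lines were grown from liver metastases. There were 5 metastasis libraries, from the lines Met25, Met35, Met36, Met38 and Met72, and 5 primary tumour libraries with the same numbers, each labelled with the line name Ink4a. All are described as untreated cultures at 90% confluence, and the tissue is given as pancreas tumour for every sample, liver metastases included. The series design speaks of metastases from 4 mice, whereas 5 numbers are labelled. It is not labelled whether the primary libraries are separate tumours or repeat cultures of 1 line. Any p-value therefore reflects only how far these 10 libraries scatter, and that scatter can be technical.

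Values are FPKM, fragments scaled by transcript length and library total, as deposited. The depth read from the steps between low values was 15.7 to 30.4 M fragments per library and was lowest in metastasis 25. The summed FPKM was 939415 in that library and between 563509 and 653161 in the other 9. Transcripts of cells other than tumour cells stood out in 6 libraries. How such transcripts came into samples described as cultures was not tested. The summed level of 17 leukocyte markers ran over 881 to 11552 FPKM where the number was 25, 38 or 72, against 2.14 to 3.48 FPKM where it was 35 or 36. In the 4 libraries of numbers 35 and 36 the T cell genes Cd3e, Cd4 and Cd8a and the macrophage gene Adgre1 were listed at 0. The keratin genes Krt8 and Krt18, taken here as tumour epithelial markers, were present in all 10 libraries. Krt8 lay between 16.3 and 325 FPKM and Krt18 between 61.4 and 386 FPKM, levels that alone do not show tumour content. Cdh1, from the same marker list, was 0.0093 to 0.29 FPKM in numbers 35 and 36 and 1.90 to 8.71 FPKM in numbers 25, 38 and 72. In bulk samples, fewer cells of a type and less RNA per cell cannot be told apart.

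Msx3 (ENSMUSG00000025469.10) lies on the minus strand of chromosome 7, from 140046157 to 140049089 in GRCm38. Msx1 (ENSMUSG00000048450.10) lies on the minus strand of chromosome 5, from 37820485 to 37824583. Msx2 (ENSMUSG00000021469.9) lies on chromosome 13, from 53466884 to 53473074. In GENCODE M21 the coding transcripts of all 3 genes have 2 exons. No other gene of the table overlapped them, but RefSeq lists an antisense RNA, Msx1os, within Msx1 that has no row in the table. The counting is not stated to use strand, so reads of Msx1 and of its antisense partner cannot be told apart.

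The bases just upstream of the starts of Msx1 and Msx3, the members with transcripts in these libraries, are shown so that the promoters can be compared. They are from RefSeq (GRCm38.p6), minus strand, at chr5:37824586-37824835 for Msx1 and chr7:140049090-140049338 for Msx3. Capitals mark matches, on either strand, to 6 short motifs: the CCAAT box (CCAAT), the GC box (GGGCGG), a Smad box (CAGAC), a GC-rich Smad site (GGCGCC), a homeodomain site (TAATTG) and its palindromic form (TAATTA). No match overlapped another.
Msx1: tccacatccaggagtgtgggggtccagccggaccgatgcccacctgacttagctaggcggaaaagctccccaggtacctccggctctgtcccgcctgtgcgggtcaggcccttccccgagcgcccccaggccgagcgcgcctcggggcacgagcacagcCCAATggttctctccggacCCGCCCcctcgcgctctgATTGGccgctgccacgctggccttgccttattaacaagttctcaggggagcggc
Msx3: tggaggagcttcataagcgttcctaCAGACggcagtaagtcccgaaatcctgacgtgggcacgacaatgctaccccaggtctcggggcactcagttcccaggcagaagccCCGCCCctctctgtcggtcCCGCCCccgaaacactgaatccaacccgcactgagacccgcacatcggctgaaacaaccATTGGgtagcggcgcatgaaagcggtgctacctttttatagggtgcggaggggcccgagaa
The Msx1 window held 2 CCAAT boxes and 1 GC box. The Msx3 window held 1 CCAAT box, 2 GC boxes and 1 Smad box. Such matches are common: of 32851 mouse promoter windows of 249 bases, 33.8% held a CCAAT box, 32.6% a GC box and 42.1% a Smad box. The homeodomain site TAATTG was in 7.15% of the windows, its palindromic form in 4.83% and the GC-rich Smad site in 9.52%, and these letters were not found in the windows of Msx1 and Msx3.

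Msx3 was 6.14 FPKM in metastasis 25, 1.89 in metastasis 35, 1.74 in metastasis 36, 4.65 in metastasis 38 and 7.07 in metastasis 72. Its primary values were 16.0 FPKM in number 25, 5.56 in number 35, 5.36 in number 36, 17.9 in number 38 and 12.8 in number 72. The metastasis library was the lower one of each number, and the groups as a whole overlapped, since primary 35 and primary 36 lay below metastasis 25 and metastasis 72. Of the genes kept for the fit, 0.0304% were lower in metastasis with no overlap at all. The mean was 4.30 ± 2.43 FPKM in metastases and 11.5 ± 5.83 FPKM in primaries (SD, n = 5 each). The metastasis level was 38.4% of the primary level in number 25, 33.9% in number 35, 32.4% in number 36, 26.0% in number 38 and 55.0% in number 72.

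On the scale of log2(FPKM + 1), which understates changes of low genes, the mean difference of Msx3 was -1.23 (SD of the 5 pair differences 0.34). The pair values were -1.25 in number 25, -1.18 in number 35, -1.22 in number 36, -1.74 in number 38 and -0.78 in number 72. The pair of number 38 had the lowest value and that of number 72 the highest, and all 5 were below 0. Of the 13152 genes that reached 1 FPKM in 5 or more libraries, 2.09% were lower in metastasis in all 5 pairs, and 0.449% had a mean difference of -1 or below. These are the values that chose the family, so nothing is read from them.

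Msx1 was 8.16 FPKM in metastasis 25, 1.83 in metastasis 35, 2.70 in metastasis 36, 3.29 in metastasis 38 and 6.60 in metastasis 72. Among primaries it reached 13.9 FPKM in number 25, 3.28 in number 35, 4.64 in number 36, 12.3 in number 38 and 3.88 in number 72. Metastasis was below primary in numbers 25, 35, 36 and 38 and above it in number 72, and the groups overlapped. The mean was 4.51 ± 2.72 FPKM in metastases and 7.60 ± 5.06 FPKM in primaries (SD, n = 5 each). The mean log2 difference was -0.58 (SD of the pair differences 0.81), with pair values of -0.70 in number 25, -0.60 in number 35, -0.61 in number 36, -1.64 in number 38 and 0.64 in number 72. The difference depended on single libraries, at -0.33 without primary 25, -0.37 without primary 38 and -0.37 without metastasis 35. Metastasis values below primary values in at least 4 of the 5 pairs were found in 15.0% of the genes kept.

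Msx2, the member tied to epithelial-mesenchymal transition in pancreatic cancer cells, was listed at 0 in all 10 libraries. It was 1 of 10 genes at 0 throughout among the 45 NK-like homeobox genes examined. A value of exactly 0 may also come from a failed estimate, so no fold is given. It did not pass the expression minimum of 1 FPKM in 5 libraries, which Msx1 and Msx3 did.

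**Figure D1:**
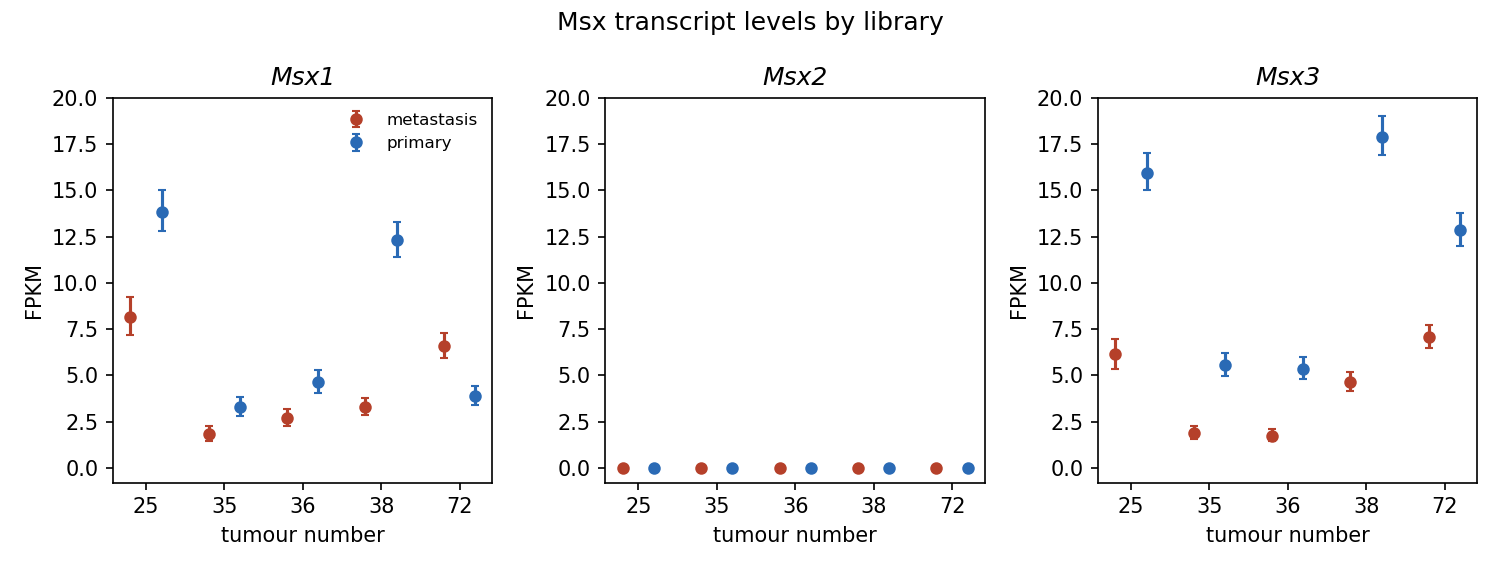
FPKM of Msx1, Msx2 and Msx3 (y axis) by tumour number (x axis) in metastasis and primary libraries, 1 point per library. Bars for Msx1 and Msx3 are 95% Poisson intervals of counting error only. Msx3 is lower in the metastasis library of each number, Msx1 in 4 of 5 numbers, and Msx2 is at 0 throughout.

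Counting error was small beside these differences. Those of Msx3 are the ones that chose the family, so for Msx3 nothing is read from this. With the annotated transcript length and the depth above, the Msx3 values correspond to about 107 to 506 fragments in metastasis libraries and 318 to 1117 in primary libraries. The exact Poisson 95% interval was 1.43 to 2.09 FPKM in metastasis 36 and 4.79 to 5.98 FPKM in primary 36. For Msx1 the counts were about 85 to 388 fragments in metastasis and 155 to 654 in primary libraries. In number 72, where Msx1 went the other way, its interval was 5.96 to 7.29 FPKM in metastasis 72 and 3.37 to 4.45 FPKM in primary 72, so that exception is also wider than counting error. These intervals rest on an assumed transcript length and on each library being scaled to its own total, and say nothing of the spread between cultures.

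Msx3 was higher in numbers 25, 38 and 72 than in numbers 35 and 36 within each group, a division set by the leukocyte markers above and not by a label. The mean was 5.95 FPKM in the 3 metastasis libraries of numbers 25, 38 and 72 and 1.81 FPKM in the 2 of numbers 35 and 36. The primary libraries had 15.6 FPKM in numbers 25, 38 and 72 and 5.46 FPKM in numbers 35 and 36. The log2 difference between the divisions was 1.29 in metastasis and 1.35 in primary libraries. This pattern was common, since 21.6% of the genes kept were higher in numbers 25, 38 and 72 than in numbers 35 and 36 within both groups, and 26.0% were lower. Msx1 had a similar size of difference, 1.05 in metastasis and 1.01 in primary libraries, but primary 72 lay between the primary libraries of numbers 35 and 36.

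Once the libraries were split in this way, the metastasis and primary values of Msx3 no longer overlapped within either division. In numbers 25, 38 and 72 the metastasis libraries ended at 7.07 FPKM and the primary libraries began at 12.8 FPKM, and 2.18% of the genes kept were lower without overlap there. In numbers 35 and 36 the metastasis libraries ended at 1.89 FPKM and the primary libraries began at 5.36 FPKM, and 15.8% of the genes kept were lower without overlap there. Of the genes kept, 0.426% were lower in metastasis without overlap in both divisions. These too are the Msx3 values that chose the family, and the split was made afterwards, so nothing is read from them.

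Some markers of other cell types followed this division. Of 17 leukocyte markers, 15 were higher in each library of numbers 25, 38 and 72 than in those of numbers 35 and 36 of the same group. These markers set the division, so nothing is read from that count. Over all genes kept the share was 21.6%. The same count was 0 of 9 for osteoblast and chondrocyte markers, 1 of 9 for neural and 6 of 10 for pancreatic acinar and islet markers. It was 4 of 8 for hepatocyte, 3 of 7 for erythroid and 2 of 8 for skeletal muscle markers. Tumour epithelial markers gave 3 of 8. For fibroblasts and pericytes 5 of 12 markers were higher in that way, with a summed level of 904 to 2528 FPKM in numbers 25, 38 and 72 against 712.5 to 994 FPKM in numbers 35 and 36. In the libraries of numbers 35 and 36, where leukocyte markers were at or near 0, Msx3 was still 1.74 to 5.56 FPKM and Msx1 1.83 to 4.64 FPKM. The part of these cells in the division of the Msx levels was not tested.

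Between metastasis and primary libraries the summed marker levels overlapped. Leukocyte markers summed to 2.32 to 11552 FPKM in metastases and 2.14 to 2960 FPKM in primary libraries, and the fibroblast and pericyte markers to 721 to 2528 FPKM in metastases and 712.5 to 1999 FPKM in primaries. None of these markers was at 0 throughout a group. Number 38 gave the largest difference of Msx3, and metastasis 38 stood apart in content. Its 8 tumour epithelial markers summed to 88.2 FPKM, against 514 to 608 FPKM in the other metastasis libraries and 446 FPKM in primary 38. Its 8 skeletal muscle markers summed to 5798 FPKM, against 1.66 FPKM in primary 38. Without metastasis 38 the Msx3 difference was -1.29. In metastasis 25 hepatocyte markers summed to 18160 FPKM and erythroid markers to 29108 FPKM. Without this library the Msx3 difference was -1.38. Pancreatic acinar and islet markers summed to 57.3 FPKM in metastasis 25, against 6584 FPKM in primary 25, and to at most 20.9 FPKM in the other primary libraries. Primary 25 held the highest Msx1 and the second highest Msx3 value, and without it the Msx3 difference was -1.09. Number 72 gave the smallest difference of Msx3 and was where Msx1 went the other way. Primary 72 held more hepatocyte (1353 FPKM), erythroid (646 FPKM) and skeletal muscle (439 FPKM) markers than metastasis 72 (260, 164.5 and 4.26 FPKM). Its leukocyte markers were lower, at 881 against 2319 FPKM. Without primary 72 the Msx3 difference was -1.16. The part of these cells in the metastasis and primary values was not tested.

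**Figure D2:**
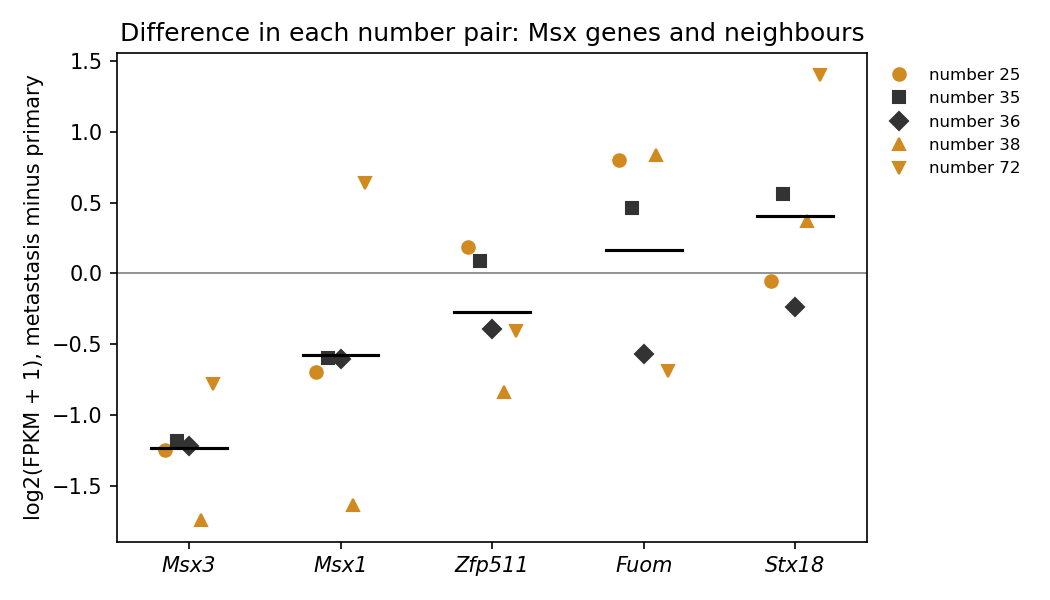
Difference of log2(FPKM + 1), metastasis minus primary (y axis), in each of the 5 number pairs for Msx3, Msx1, 2 neighbours of Msx3 (Zfp511, Fuom) and 1 of Msx1 (Stx18). Horizontal bars are means, and orange marks numbers 25, 38 and 72. The 5 Msx3 pairs lie between -1.74 and -0.78, and these are the values that chose the family. Each neighbour shown has pairs on both sides of 0. Of the genes kept, 2.09% were lower and 2.36% higher in metastasis in all 5 pairs.

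The nearest genes to Msx3 with a mean of at least 1 FPKM were Zfp511, a zinc finger gene 5.6 kb away, and Fuom, which encodes fucose mutarotase, 47.7 kb away. Zfp511 was 22.4 ± 5.05 FPKM in metastases and 27.1 ± 5.11 FPKM in primaries (SD, n = 5 each), lower in 3 of 5 pairs. Its log2 fold change was -0.27 (SE 0.21). Fuom was 10.8 ± 10.7 FPKM in metastases and 8.22 ± 6.80 FPKM in primaries, lower in 2 of 5 pairs. Neither passed the test (limma adjusted p = 0.9998 for each). Around Msx1 the nearest were Cytl1, a cytokine-like gene at 4.31 FPKM in metastasis 25 and 9.37 FPKM in primary 25 and no higher than 0.495 FPKM in any other library, and Stx18, a syntaxin of the endoplasmic reticulum 214.2 kb away, with a log2 fold change of 0.41 (SE 0.31). Around Msx2 they were Sptlc1, a subunit of serine palmitoyltransferase, between 11.1 and 25.0 FPKM, and the mitochondrial serine carrier Sfxn1, between 24.7 and 50.3 FPKM.

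Of 45 NK-like homeobox genes (the 3 Msx genes and 42 others), Msx3 had the second highest mean, 7.91 FPKM, and Msx1 the fourth, 6.06 FPKM. Hlx, known from haematopoietic and mesenchymal cells, averaged 9.24 FPKM, and Hhex, a regulator of liver and pancreas development, 7.67 FPKM. FPKM is per length, so levels can be set side by side, but Hlx, Msx3, Hhex and Msx1 overlapped over the 10 libraries. Msx3 held rank 1 in primary 25, primary 35 and primary 38 and rank 2 in primary 36 and primary 72. In metastasis libraries it held rank 2 in number 72, rank 3 in number 38, rank 4 in numbers 35 and 36 and rank 6 in number 25. Of the 42 others, 31 stayed under 1 FPKM in every library.

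**Figure D3:**
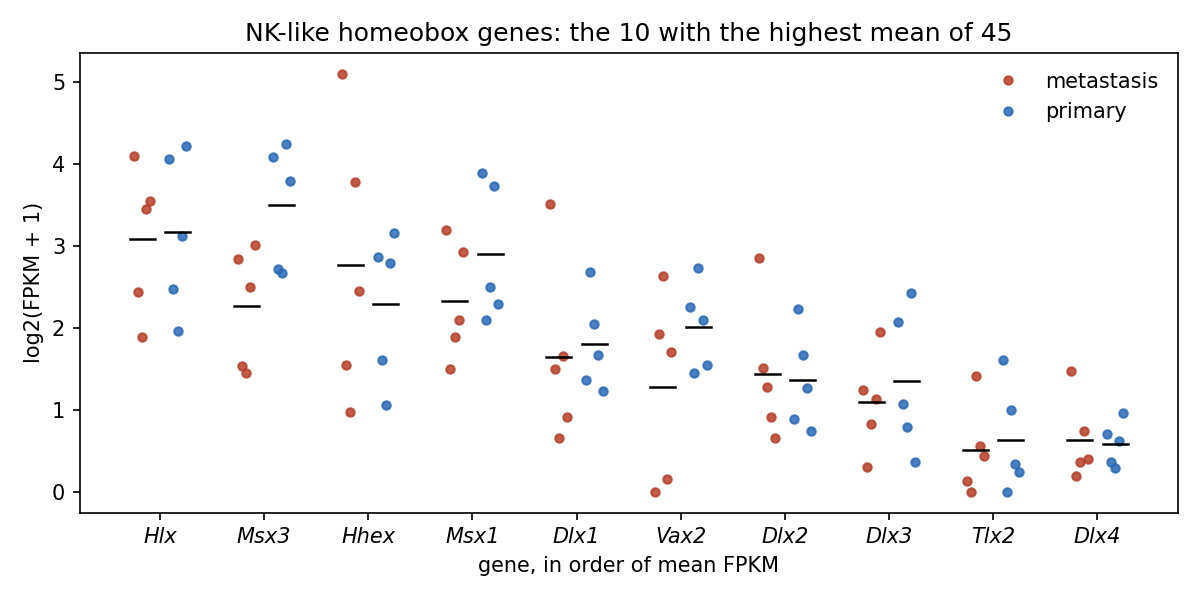
log2(FPKM + 1) (y axis) of the 10 NK-like homeobox genes with the highest mean (x axis, in order of mean FPKM), 1 point per library, with bars at group means. Msx3 and Msx1 are among the first 4 of 45.

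Of the 42 related homeobox genes, 6 passed the expression minimum, and 0 rose or fell (limma adjusted p = 0.9998 for each). Their median log2 fold change was -0.12, beside 0.0075 over all genes kept. Its sign depended on single libraries, at 0.11 without metastasis 36, 0.0052 without metastasis 35 and -0.32 without metastasis 25. Vax2, an eye and forebrain gene, was 2.07 ± 2.14 FPKM in metastases and 3.26 ± 1.59 FPKM in primaries (SD, n = 5 each). Dlx1 was 3.16 ± 4.08 FPKM in metastases and 2.73 ± 1.65 FPKM in primaries, with its highest value, 10.4 FPKM, in metastasis 25. Hhex, also highest there at 33.3 FPKM, had a log2 fold change of 0.48 (SE 0.76).

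Most genes of the embryonic setting of Msx3 were at low levels in these libraries. So were most genes of the table, where 13152 of 48516 passed the expression minimum. Of 21 genes of the dorsal neural tube and neural crest, 17 stayed under 1 FPKM in every library, 1, the secreted Wnt enhancer Rspo1, reached 1.82 FPKM in primary 25, and 3 passed the minimum. Wnt3a, a roof plate Wnt ligand, and Olig3 and Atoh1, bHLH factors of dorsal progenitors, were listed at 0 in all 10 libraries. Pax3 was at most 0.63 FPKM, Pax7 at most 0.29, Wnt1 at most 0.53, Zic1 at most 0.36 and Sox10 at most 0.17 FPKM. The 3 that passed were Sox9, Snai2 and Ets1, which many other tissues use, with log2 fold changes of 0.16, 0.29 and 0.16 and 0 called (limma adjusted p = 0.9998). The 9 neural markers summed to 37.6 to 277 FPKM in metastases and 112 to 254 FPKM in primary libraries. Olig2 was at 0 throughout, and Sox2 was at 0 in all primary libraries.

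Ligands, receptors, Smads and targets of the BMP pathway had transcripts in these libraries, and 0 of its genes passed the test. With limma on log2(FPKM + 1) and Benjamini-Hochberg adjustment, 0 of 13152 genes had an adjusted p under 0.05 between metastasis and primary libraries (0%), and 31 had an unadjusted p under 0.05. A fit blocked by number also called 0, with 208 at an unadjusted p under 0.05. Both counts lie far below the share of 0.05 that would pass by chance if no gene differed. The main fit left out the division by leukocyte markers. Of the genes kept, 21.6% were higher and 26.0% lower on its side with more leukocyte transcripts, within both groups. The part of this division in the low counts was not tested. The test could hardly call any gene, so 0 called carries little weight. The gene lists are therefore described by levels and medians, and a missed threshold does not show that a gene is alike in both groups. The medians of receptors and Smads, antagonists, targets, cofactors and genes of epithelial-mesenchymal transition were near 0, and each changed sign when some single library was left out.

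Of 14 BMP ligands, 3 passed the minimum and 0 were called. Bmp2, an early ligand of bone and heart, was 29.4 FPKM in metastasis 25, 1.18 in metastasis 35, 0.021 in metastasis 36, 25.7 in metastasis 38 and 13.2 in metastasis 72. In primary libraries it was 16.3 FPKM in number 25, 3.40 in number 35, 0.83 in number 36, 2.71 in number 38 and 14.0 in number 72. It was at most 3.40 FPKM in numbers 35 and 36, and primary 38 was in that range too. Bmp4, the ligand best known for inducing Msx genes in tooth and limb, had the opposite order, with 6.64 and 12.2 FPKM in metastasis 35 and metastasis 36 and 13.1 and 16.4 FPKM in primary 35 and primary 36. In the other 6 libraries Bmp4 was at most 6.45 FPKM. Bmp4 was thus highest where Msx1 and Msx3 were lowest within each group, except that primary 72 held less Msx1 than primary 36. Such an order was common, since 26.0% of the genes kept were lower in numbers 25, 38 and 72 within both groups. A relation of Bmp4 to the Msx levels was not tested. The median log2 fold change of the 3 ligands was -0.28. It stayed below 0 when any 1 library was left out but was nearer 0, at -0.034 without primary 35, -0.041 without primary 38, -0.083 without primary 36, -0.13 without metastasis 25, metastasis 35 or metastasis 36 and -0.18 without primary 72. With the minimum set on the mean, which adds Bmp7, it was 0.035.

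Of 13 receptor and Smad genes 10 passed the minimum and 0 were called, with a median log2 fold change of -0.041 beside 0.0075 over all genes. The signal carrier Smad5 was 17.5 ± 1.30 FPKM in metastases and 18.8 ± 1.96 FPKM in primaries (SD, n = 5 each). Acvr1, a type I receptor, the co-receptor Rgmb and Smad5 had lower values in metastasis in all 5 pairs, with log2 fold changes of -0.20 (SE 0.34), -0.37 (SE 0.23) and -0.091 (SE 0.16), where 2.09% of genes kept did so. This list too was chosen with earlier results of these data known. Smad4, the shared partner of the receptor-activated Smads, was 35.1 ± 10.3 FPKM in metastases and 28.6 ± 8.32 FPKM in primaries.

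The secreted antagonists Grem1 and Nbl1 were transcribed in all 10 libraries. Grem1, a secreted BMP antagonist, was 127 FPKM in metastasis 25, 117 in metastasis 35, 150 in metastasis 36, 50.7 in metastasis 38 and 156 in metastasis 72. Its primary values were 66.2 FPKM in number 25, 393 in number 35, 194 in number 36, 74.6 in number 38 and 43.7 in number 72. It was lower in metastasis in 3 pairs and higher in 2. Nbl1, another secreted antagonist, was 138 ± 69.3 FPKM in metastases and 155 ± 62.9 FPKM in primaries (SD, n = 5 each). Of 18 antagonists and inhibitors 13 passed the minimum and 0 were called, with a median log2 fold change of 0.020.

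Of 14 other BMP target genes 9 passed the minimum, 0 were called, and 5 of the 9 had a higher and 4 a lower mean in metastasis. Id1, an inhibitor of bHLH factors and the standard readout of BMP signalling, was 206 FPKM in metastasis 25, 69.8 in metastasis 35, 78.7 in metastasis 36, 32.3 in metastasis 38 and 53.4 in metastasis 72. Among primaries it reached 76.4 FPKM in number 25, 89.7 in number 35, 80.6 in number 36, 41.7 in number 38 and 86.6 in number 72. Id1 was lower in metastasis in 4 pairs, with a log2 fold change of -0.0031 (SE 0.44), and number 25 was the exception. Id3 was 126 ± 137 FPKM in metastases and 85.4 ± 44.7 FPKM in primaries (SD, n = 5 each), and also highest in metastasis 25. Id2 had a log2 fold change of -0.20 (SE 0.88) and the inhibitory Smad gene Smad7 one of 0.062 (SE 0.48). The median of the list was 0.062 with all libraries and -0.23 without metastasis 25, the library richest in hepatocyte transcripts, whose part in this was not tested.

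**Figure D4:**
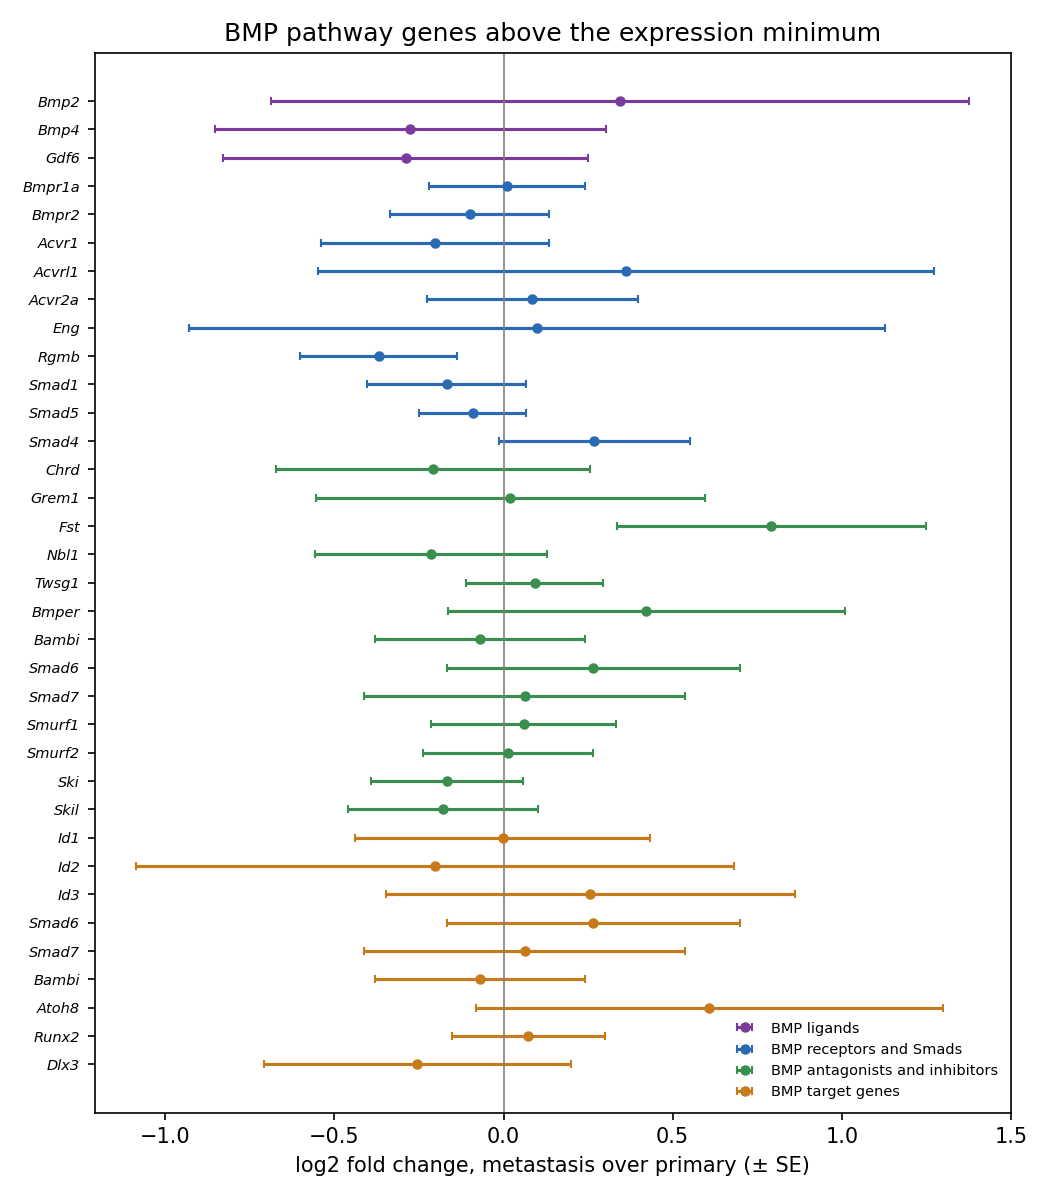
log2 fold change, metastasis over primary, with its SE from limma (x axis), of the BMP ligands, receptors and Smads, antagonists and inhibitors and target genes above the expression minimum (y axis). Genes on both the inhibitor and the target list appear once under each. Fold changes lie on both sides of 0 in each list, and 0 genes passed the threshold.

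Msx proteins repress through other nuclear proteins. Of 20 cofactors and partners 17 passed the minimum and 0 were called, with a median log2 fold change of 0.073. Ehmt2, the histone H3 lysine 9 methyltransferase G9a, was 80.3 ± 37.4 FPKM in metastases and 72.9 ± 18.3 FPKM in primaries (SD, n = 5 each). Ezh2, the catalytic subunit of Polycomb complex PRC2, was 46.7 ± 17.6 FPKM in metastases and 58.1 ± 7.80 FPKM in primaries. The histone demethylase gene Kdm1a was 31.3 ± 10.5 FPKM in metastases and 35.8 ± 16.4 FPKM in primaries. Cebpb, a bZIP factor, had higher values in metastasis in all 5 pairs, with a log2 fold change of 0.44 (SE 0.85), where 2.36% of genes kept did so.

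Of 12 genes of epithelial-mesenchymal transition, the process to which Msx2 has been tied, 11 passed the minimum and 0 were called, with a median log2 fold change of 0.044. Vim, an intermediate filament gene of mesenchymal cells, averaged 4476 ± 2079 FPKM in metastases and 4033 ± 1783 FPKM in primaries (SD, n = 5 each), and the fibronectin gene Fn1 2149 ± 1343 FPKM in metastases and 2112 ± 509.6 FPKM in primaries. Twist1, a bHLH factor of mesoderm, was 29.6 ± 2.94 FPKM in metastases and 33.4 ± 3.05 FPKM in primaries. Prrx1, a homeobox gene of mesenchyme, was 49.3 ± 12.7 FPKM in metastases and 51.2 ± 12.5 FPKM in primaries.

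Of 25 genes of the cell cycle, all had means below the primary ones in metastasis, and 0 were called. Of the 25, 10 had lower values in all 5 pairs, where 2.09% of genes kept did so. The list was chosen with earlier results of these data known, so nothing is read from that count. The median log2 fold change was -0.49, and single libraries moved it, to -0.21 without metastasis 72, -0.77 without metastasis 35 and -0.75 without metastasis 36. In numbers 35 and 36 alone, where Msx3 was lower too, the median was -0.097 and 10 of the 25 genes had a higher mean in metastasis. Among the 4 most abundant, Cdk1, the mitotic kinase, was 206 ± 193 FPKM in metastases and 224 ± 136 FPKM in primaries (SD, n = 5 each). The helicase gene Mcm3 was 71.4 ± 41.7 FPKM in metastases and 102 ± 17.3 FPKM in primaries. Cdk1 was 43.1 to 149.5 FPKM in numbers 25, 38 and 72 and 365 to 461 FPKM in numbers 35 and 36. The part of cell division in the Msx3 values was not tested.

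The genes whose pattern was most like that of Msx3 were found by the root mean square difference over the 10 libraries, on log2(FPKM + 1) with each gene's own mean taken off. Over 13140 genes the median of this measure was 1.06. The closest was Nr2f1, an orphan nuclear receptor of neural development, at 0.44. Nr2f1 was 65.5 FPKM in metastasis 25, 18.9 in metastasis 35, 15.7 in metastasis 36, 64.6 in metastasis 38 and 76.9 in metastasis 72. The primary libraries had 89.7 FPKM in number 25, 34.5 in number 35, 24.7 in number 36, 106 in number 38 and 91.0 in number 72. It was lower in metastasis in all 5 pairs, by less than Msx3, with a log2 fold change of -0.57 (SE 0.57). Next came Ube2ql1 (0.46), a ubiquitin conjugating enzyme gene, Mxra8 (0.47), an adhesion molecule, Ptgr1 (0.48), a reductase of prostaglandins and leukotrienes, Anks1b (0.49) and Ggh (0.51), the lysosomal gamma-glutamyl hydrolase. Mxra8 and Ptgr1 had lower values in metastasis in all 5 pairs, and Ube2ql1, Anks1b and Ggh in 4. Of all genes kept, 2.09% were lower in all 5 pairs and 15.0% in at least 4. These genes and Nr2f1 were picked for likeness to Msx3, which was chosen for its lower metastasis values. Nothing is therefore read from their pair counts. Msx1 stood at 0.52, rank 14 among the 13140.

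For Msx1 the closest were C1qtnf1 (0.29), a secreted C1q/TNF-related protein, Gch1 (0.31), the first enzyme of tetrahydrobiopterin synthesis, Antxr1 (0.34), a collagen-binding anthrax toxin receptor, Abcd4 (0.36), Abhd4 (0.36) and Wbp1 (0.37). The median over all genes was 0.94, and Msx3 held rank 155. C1qtnf1 followed Msx1 in the exception too, with 21.2 FPKM in metastasis 72 and 10.2 FPKM in primary 72. These genes were picked for likeness over the same 10 libraries, so their likeness is no independent result; gene models without a name were passed over.

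**Figure D5:**
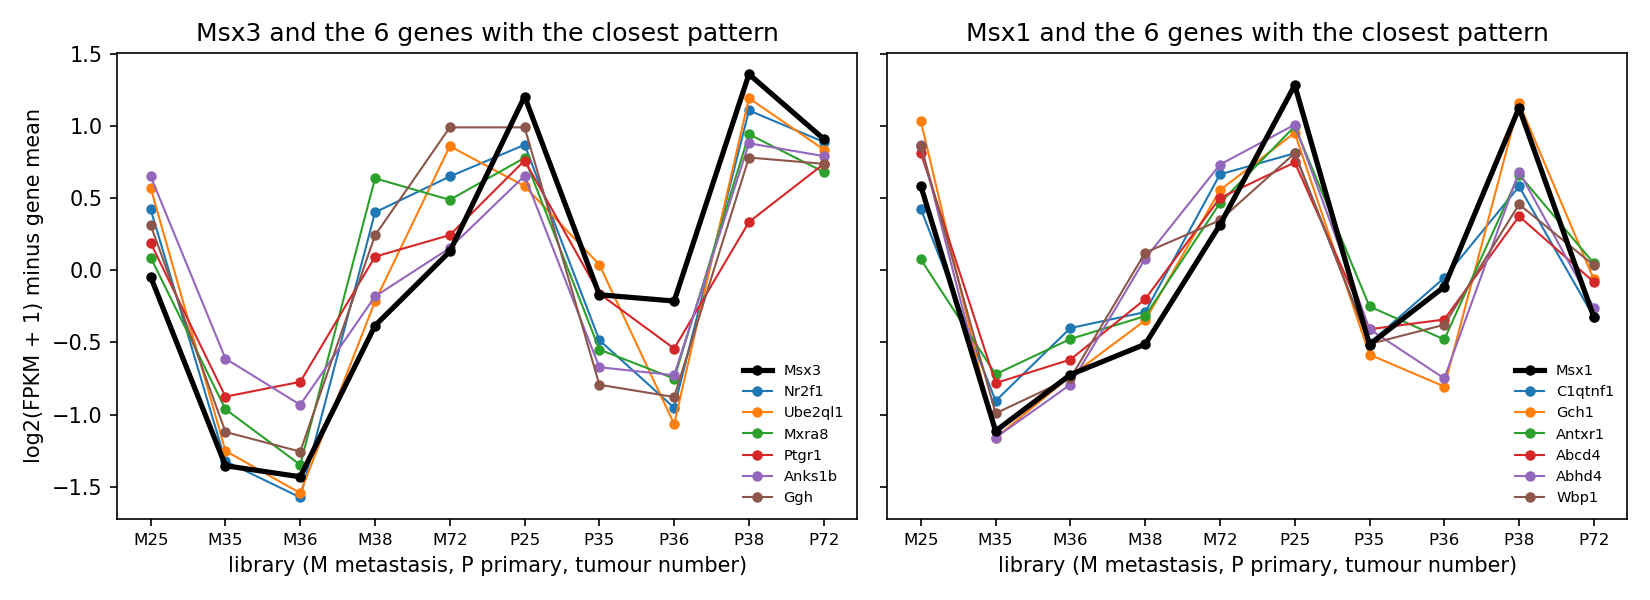
log2(FPKM + 1) minus each gene's mean (y axis) in the 10 libraries (x axis; M metastasis, P primary, with the tumour number) for Msx3 and Msx1 (black) and the 6 genes closest to each. The lines are low in numbers 35 and 36 of both groups, and Msx3 has the lowest value of its set in metastasis 38.

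The ratio of Msx3 to Msx1, both in FPKM, was 0.75 in metastasis 25, 1.03 in metastasis 35, 0.64 in metastasis 36, 1.42 in metastasis 38 and 1.07 in metastasis 72. In primary libraries it was 1.15 in number 25, 1.69 in number 35, 1.15 in number 36, 1.45 in number 38 and 3.31 in number 72. The metastasis ratio was the lower one in numbers 25, 35, 36 and 72. In number 38 Msx3 was at 26.0% and Msx1 at 26.7% of the primary level. The ratios there cannot be told apart, since the counting interval of Msx1 in metastasis 38 was 2.84 to 3.78 FPKM. Msx3 was chosen for its lower metastasis values, so nothing is read from the lower ratios.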

How the data were processed

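RNA-seq of polyA RNA from 5 metastasis and 5 primary tumour samples, described as cultures, was deposited as 1 table of FPKM values, made by the authors. Salmon, edgeR and mm8 appear in the submitters' processing notes without role or order, so the program behind the FPKM values is not stated. Gene coordinates in the table are those of GRCm38, and Msx gene starts and ends match GENCODE M21. Rows were matched by gene symbol, and rows without an identifier were left out.

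FPKM values are not counts, so log2(FPKM + 1) was tested with limma 3.58.1 (R 4.3.3), using its trend on mean intensity and a Benjamini-Hochberg adjusted p under 0.05 as threshold, over the 13152 genes that reached 1 FPKM in 5 or more libraries. The procedure was tested on simulated data. The Msx genes and all gene lists were chosen with earlier results of these data known, and differences of the Msx genes carry no p-value.

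Depth was read from the steps between low values in single-exon genes of at least 3000 bases, where 87.4% to 95.2% of values per library lay within 0.1 of a whole number of fragments. Fragment numbers of Msx1 and Msx3 are approximate, and their exact Poisson 95% intervals cover counting error only.

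Pairs in the text are libraries that share a tumour number. They serve the pair differences and counts only: the main fit did not use the number, and its SE and p-values are unpaired. Within pairs, deviations from the group means were compared. Correlations over genes were 0.39 in number 25, 0.86 in number 35, 0.89 in number 36, 0.68 in number 38 and 0.23 in number 72. A different number gave the closest primary library for metastasis 25 (number 72), metastasis 35 (number 36) and metastasis 72 (number 25). The correlations therefore do not single out the pairs by number. The alternatives were another pseudocount, other scalings and filters, no intensity trend, a block for the number, subsets of numbers and leaving out each library. Genes named are the 3 Msx genes, the 4 genes of each list with the highest mean, called genes, the nearest expressed gene on each side of each Msx gene, the 6 named genes closest in pattern to Msx1 and Msx3, and marker genes.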

Additional observations from a re-analysis of the deposited data

Results flagged for a closer look

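In 6 of 112 sets of 5 libraries, from 56 genes named, 1 library stood apart from the other 4, and chance flags about 1 in 20 such sets. Bmp7, a BMP ligand, was 4.42 FPKM in primary 72 and 0.0334 to 0.591 FPKM in the other primary libraries, while its highest value of all was 22.8 FPKM in metastasis 25. Cytl1, a neighbour of Msx1, reached 4.31 FPKM in metastasis 25, with the other metastasis libraries no higher than 0.495 FPKM, and 9.37 FPKM in primary 25, with the other primary libraries listed at 0. The antagonist Grem1 was 50.7 FPKM in metastasis 38 and 117 to 156 FPKM in the other metastasis libraries. Id1 was 41.7 FPKM in primary 38 and 76.4 to 89.7 FPKM in the other primary libraries. Smad5 was 22.2 FPKM in primary 38 and 17.5 to 18.5 FPKM in the others.

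For 2 cell cycle genes every pair of numbers 25, 38 and 72 had a lower metastasis value and every pair of numbers 35 and 36 a higher one, a difference that was not tested. The mean log2 difference of Cdk1 was -0.92 in numbers 25, 38 and 72 and 0.14 in numbers 35 and 36, a gap of -1.06. That of Top2a was -1.43 in numbers 25, 38 and 72 and 0.16 in numbers 35 and 36, a gap of -1.59.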

How the results depend on the processing

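The difference of Msx3 was below 0 under all 16 alternatives, between -1.44 and -1.03, and that of Msx1 under all 16, between -0.80 and -0.33. Msx3 was chosen for being lower in metastasis, so its sign here is no support. The block for the number leaves both differences unchanged by design, and most alternatives only leave out a library. Leaving out 1 library gave -1.44 to -1.03 for Msx3 and -0.80 to -0.33 for Msx1. Scaling to a common FPKM sum gave a median of -0.11 over all genes, where it was 0.0075 as deposited, with -1.36 for Msx3 and -0.71 for Msx1. That scaling turned the medians of antagonists (-0.12), targets (-0.063), cofactors (-0.054) and genes of epithelial-mesenchymal transition (-0.0745) below 0. Limma called 0 genes in all 19 alternatives. In the main fit fewer genes than by chance had an unadjusted p under 0.05, so this lack of calls says little. With the tumour number as a replicate block, 0 genes were called and 208 had an unadjusted p under 0.05, so the pairing changed no call. In numbers 35 and 36 alone 800 had an unadjusted p under 0.05, with a lowest adjusted p of 0.7219 by limma, and in numbers 25, 38 and 72 alone 145. The median of the BMP targets was -0.23 without metastasis 25, and that of the dorsal neural tube genes -0.21 in numbers 35 and 36 alone, and the cause was not tested. Depth limits genes near 0, so that levels listed at 0, as for Msx2, do not show that a gene is silent.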
